A study of Mus musculus with 98 samples.

Results

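The transcripts of 8 mouse chemokines, Cxcl13, Cxcl12, Cxcl9, Cxcl10, Ccl2, Ccl8, Ccl11 and Ccl19, were followed in mice with transplanted hepatocytes. The tissues were skeletal muscle, liver and 2 regions of the hypothalamus, namely the suprachiasmatic nucleus (SCN), the central clock, and the arcuate nucleus (ARC), which regulates feeding. They were matched by symbol and were 8 of 19689 mouse rows in the count table of liver and 8 of 20415 rows in the table of the other tissues. The set started from Cxcl13, which was selected because it was higher in every muscle library of one arm, so its muscle difference is described here without a test. The other members were examined to see whether they moved with it, and whether mouse transcripts in the livers of that arm did the same.

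All mice were FRGN animals, which carry Fah-/-, Rag2-/- and Il2rg-/- on a background crossed with non-obese diabetic mice. They were males of 10 weeks that received cycles of nitisinone (NTBC), which protects hepatocytes lacking Fah, and prophylactic sulfamethoxazole with trimethoprim. The Hu arm carried human hepatocytes, with repopulation above 70% required by the labels, and the Mu arm carried murine hepatocytes. Rag2 and Il2rg are needed for B, T and NK cells, so neither arm is a model of chemokine action on normal lymphocytes, and the blood vessels, stroma and myeloid cells of a Hu liver are those of the mouse. Sampling took place at 6 times of day, ZT (zeitgeber time, counted in hours from lights on) 2, 6, 10, 14, 18 and 22. Muscle and liver each had 15 Hu and 12 Mu libraries, and ARC and SCN each had 10 Hu and 12 Mu libraries. Nothing in the labels states which libraries came from the same mouse, so the tests measure the spread between libraries.

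Chemokines are small secreted proteins that bind G protein-coupled receptors and guide the migration of leukocytes. Their family names describe the first cysteines of the mature protein, which are adjacent in CC chemokines and separated by a single residue in CXC chemokines. Homeostatic members such as Cxcl13, Cxcl12 and Ccl19 are made by stromal and myeloid cells and place lymphocytes and progenitors in tissues, whereas inflammatory members such as Cxcl9, Cxcl10, Ccl2, Ccl8 and Ccl11 are raised by interferon or by NF-kB signalling. Cxcl13 draws B cells into follicles through Cxcr5, and lymphotoxin signalling through non-canonical NF-kB is a known inducer of it in lymphoid stroma.

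The coding sequence around that cysteine pair is shown because it defines the family each member belongs to. The windows come from GENCODE M21 transcripts (GRCm38), run 5′ to 3′, and have the 2 cysteine codons in capitals.
Cxcl13: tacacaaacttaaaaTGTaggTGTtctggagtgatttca
Cxcl12: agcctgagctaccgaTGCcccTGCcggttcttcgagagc
Cxcl9: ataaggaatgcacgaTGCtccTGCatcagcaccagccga
Cxcl10: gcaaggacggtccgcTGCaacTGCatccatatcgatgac
Ccl2: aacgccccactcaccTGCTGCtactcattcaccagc
Ccl8: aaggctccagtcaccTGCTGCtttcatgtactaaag
Ccl11: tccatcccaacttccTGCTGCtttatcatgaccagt
Ccl19: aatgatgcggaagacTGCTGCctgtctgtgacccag
In the first 4 sequences 1 codon lies between the cysteine codons, and in the last 4 none does.

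Cxcl9 (ENSMUSG00000029417, chromosome 5, minus strand, 92321347 to 92328079) and Cxcl10 (ENSMUSG00000034855, minus strand, 92346638 to 92348889) are neighbours with 18.558 kb between them, and Cxcl13 (ENSMUSG00000023078, plus strand, 95956951 to 95961068) lies on the same chromosome (GRCm38, GENCODE M21). Ccl2, Ccl11 and Ccl8 share an 81.229 kb cluster on chromosome 11 with Ccl7 and Ccl12. The promoters of Cxcl13, Cxcl9 and Cxcl10 are printed because Cxcl13 opened the comparison and because the other two, though neighbours induced by the same interferon, moved in opposite directions in liver. Each holds 250 bases before and 50 after the RefSeq start (GRCm38.p6), on the strand of the gene, with motif matches in capitals.
Cxcl13: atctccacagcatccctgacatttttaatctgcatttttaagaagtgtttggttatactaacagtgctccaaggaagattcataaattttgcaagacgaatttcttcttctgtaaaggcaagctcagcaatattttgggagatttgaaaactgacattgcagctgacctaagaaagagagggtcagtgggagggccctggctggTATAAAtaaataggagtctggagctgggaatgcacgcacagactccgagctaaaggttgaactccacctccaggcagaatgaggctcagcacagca
Cxcl9: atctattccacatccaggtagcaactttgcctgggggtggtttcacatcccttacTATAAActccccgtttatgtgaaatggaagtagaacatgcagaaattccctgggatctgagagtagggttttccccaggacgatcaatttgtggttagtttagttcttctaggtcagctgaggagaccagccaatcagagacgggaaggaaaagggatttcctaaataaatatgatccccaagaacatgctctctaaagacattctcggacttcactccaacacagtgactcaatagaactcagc
Cxcl10: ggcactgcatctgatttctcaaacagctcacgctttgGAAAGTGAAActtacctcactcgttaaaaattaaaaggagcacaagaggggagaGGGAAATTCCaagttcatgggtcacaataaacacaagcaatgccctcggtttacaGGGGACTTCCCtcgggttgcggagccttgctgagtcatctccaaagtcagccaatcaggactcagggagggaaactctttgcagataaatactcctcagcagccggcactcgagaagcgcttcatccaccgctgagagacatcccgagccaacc
Promoters were found in the RefSeq table for 6 of the 8 members and were searched on both strands. A match to the letters TATAAA lay 46 bases before the start of Cxcl13, 195 bases before that of Cxcl9 and 32 bases before that of Ccl8. This motif was present in 13.6% of 32851 mouse promoters of that length. The NF-kB consensus matched the Cxcl10 promoter in 2 separate places, 159 bases and 103 to 104 bases before the start, where the second place held overlapping matches on both strands. It matched 8.46% of all promoters and no other member. An interferon-stimulated motif, GAAANNGAAA, was found in Cxcl10 and Ccl19 and in 3.44% of all promoters. These matches describe letters in a window and do not show binding.

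Depth, labels and tissue identity were examined over the whole series. Libraries of muscle, ARC and SCN held 23.7 to 92.1 M counts (M, mega). Mouse rows held 97.1 to 118 M counts in Mu livers and 7.70 to 87.9 M in Hu livers, where human rows took 15.9% to 93.1% of all counts. Levels are given in CPM, the count of a gene per M mouse counts of its library, with library sizes scaled by TMM. Mouse Fah averaged 710 CPM in Mu livers and 18 CPM in Hu livers. Transcripts of Rag2 and Il2rg were counted in both arms, and since the deleted part of these genes is not given in the sources used here, they check nothing. The summed level of 7 muscle fibre markers was at least 76492 CPM in every muscle library. Markers of B, T and NK cells stayed at or below 3.39 CPM in sum over 10 genes in muscle, where Ms4a1 and Ncr1 were at 0 in all libraries, and at or below 8.18 CPM in liver.

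Cxcl13 was higher in Hu muscle than in Mu muscle at every time of day. In the 12 Mu muscles it was at 0.0696 CPM in the lowest library, 0.351 CPM in the median and 0.844 CPM in the highest. In the 15 Hu muscles the lowest library was at 1.53 CPM, the median at 4.74 CPM and the highest at 37.3 CPM. The groups did not overlap, and 15 of 15 Hu libraries lay above every Mu library. Such separation was seen for 0.0563% of the 14197 genes tested in muscle, and for Cxcl13 it is what the gene was selected on. The fitted log2 difference was 4.12 ± 0.41 (SE), a 17.4-fold difference, and the ratio of the medians was 13.5. The library Hu ZT14 replicate 2 stood apart: without it the Hu mean fell from 7.11 ± 8.78 CPM (SD, n = 15) to 4.96 ± 2.83 CPM (SD, n = 14), and the next library was at 11.8 CPM. In bulk tissue, more cells of a type and more RNA per cell cannot be told apart, which holds for every level given here.

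**Figure D1:**
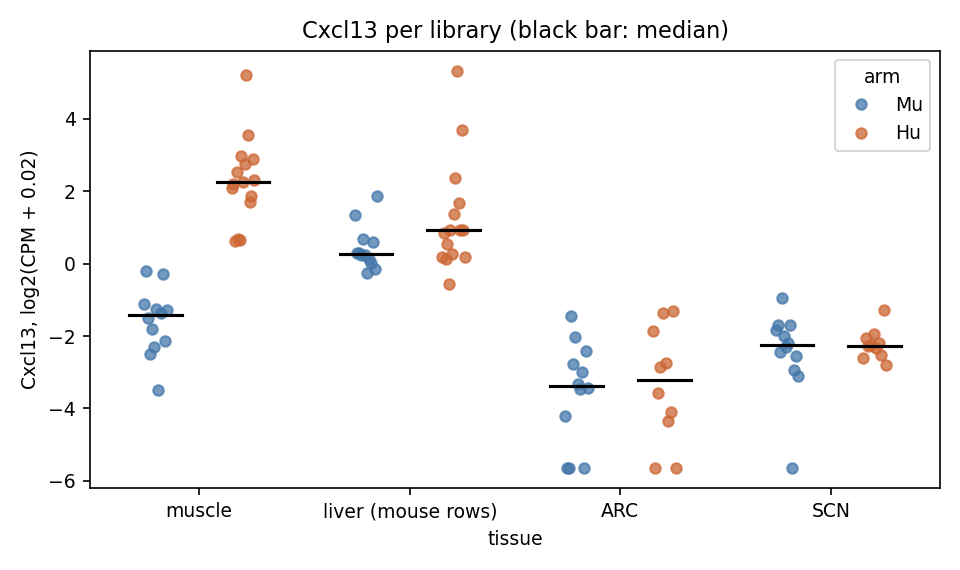
Cxcl13 in each library, as log2(CPM + 0.02) on the y axis, by tissue and arm on the x axis (Mu blue, Hu orange, black bar the median). All 15 Hu muscles lie above all 12 Mu muscles, liver overlaps between arms except for 3 high Hu libraries, and ARC and SCN overlap.

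In the mouse rows of liver Cxcl13 was higher in Hu by a smaller difference, and the arms overlapped. Mu livers held 0.819 CPM at the lowest, 1.19 CPM in the median and 3.66 CPM at the highest. Hu livers held 0.658, 1.87 and 40.2 CPM in the same order. Only 3 of 15 Hu libraries were above every Mu library, and 1 Hu library was below every Mu library. The log2 difference was 1.24 ± 0.38 (SE; adjusted p = 0.00444), in a tissue where 42.5% of 14977 genes were called higher in Hu and 7.52% were higher in every Hu library than in every Mu library. The result rested in part on 1 library, again Hu ZT14 replicate 2, which was at 40.2 CPM, and Hu ZT18 replicate 3 came next at 12.9 CPM. Without Hu ZT14 replicate 2 the difference was 0.77 (adjusted p = 0.0197). It missed the threshold with time as a factor (0.82, adjusted p = 0.145) and when libraries were scaled by all rows, human and mouse together (0.30, adjusted p = 0.391). That scaling moved the median difference of all mouse genes in liver from 0.07 to -0.70.

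Among the other members Ccl8 alone was called in muscle, close to the threshold. Of the other 7 members, 6 passed the filter on low counts, 1 was called higher in Hu and none lower, while 13.5% of the genes tested in muscle were called higher and 13.3% lower. The median log2 difference of these 6 was 0.29, against 0.03 for all genes tested. Cxcl12, the ligand of Cxcr4 that retains haematopoietic and endothelial cells, was at 72.1 to 176 CPM in Mu (median 106) and 73.5 to 222 CPM in Hu (median 94.4). Its difference was -0.07 ± 0.14 (adjusted p = 0.749). The arms overlapped almost entirely.

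Ccl8, also named MCP-2 and a ligand of Ccr2 and Ccr8, was at 0.228 CPM in the lowest, 0.600 CPM in the median and 1.81 CPM in the highest Mu muscle. In Hu muscle these values were 0.537, 1.13 and 5.54 CPM. The arms overlapped, although 4 of 15 Hu libraries exceeded every Mu library and 14 of 15 exceeded the Mu median. The log2 difference was 1.10 ± 0.41 (SE; adjusted p = 0.0494). This call was lost in 15 of the 27 fits that left out 1 library each, with adjusted p reaching 0.105 without Hu ZT10 replicate 2, and also without a filter on low counts (adjusted p = 0.0607). The eosinophil attractant Ccl11, whose gene lies in the same cluster, was at 7.90 to 14.6 CPM in Mu and 7.11 to 14.2 CPM in Hu, with a difference of 0.01 ± 0.07 (adjusted p = 0.953). Ccl2, the main attractant of Ccr2-bearing monocytes, lay between 0.104 and 0.420 CPM in Mu (median 0.269) and between 0.125 and 1.15 CPM in Hu (median 0.285). Its difference of 0.68 ± 0.33 missed the threshold (adjusted p = 0.123), although 6 of 15 Hu libraries were above every Mu library.

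The interferon-induced Cxcr3 ligands overlapped between arms in muscle. Cxcl9 was at 0.828 to 7.54 CPM in Mu and 0.799 to 6.88 CPM in Hu, with a difference of 0.10 ± 0.35 (adjusted p = 0.860). Cxcl10 reached 0.907 CPM in Mu and 1.09 CPM in Hu, with a difference of 0.48 ± 0.54 (adjusted p = 0.533). Ccl19, which guides dendritic cells and T cells through Ccr7, was near the limit of detection. It had at most 3 counts in any Mu muscle and 7 in any Hu muscle, and was at 0 in 9 of 15 Hu libraries, where 3 counts correspond to 0.0326 to 0.0696 CPM. It was not tested.

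**Figure D2:**
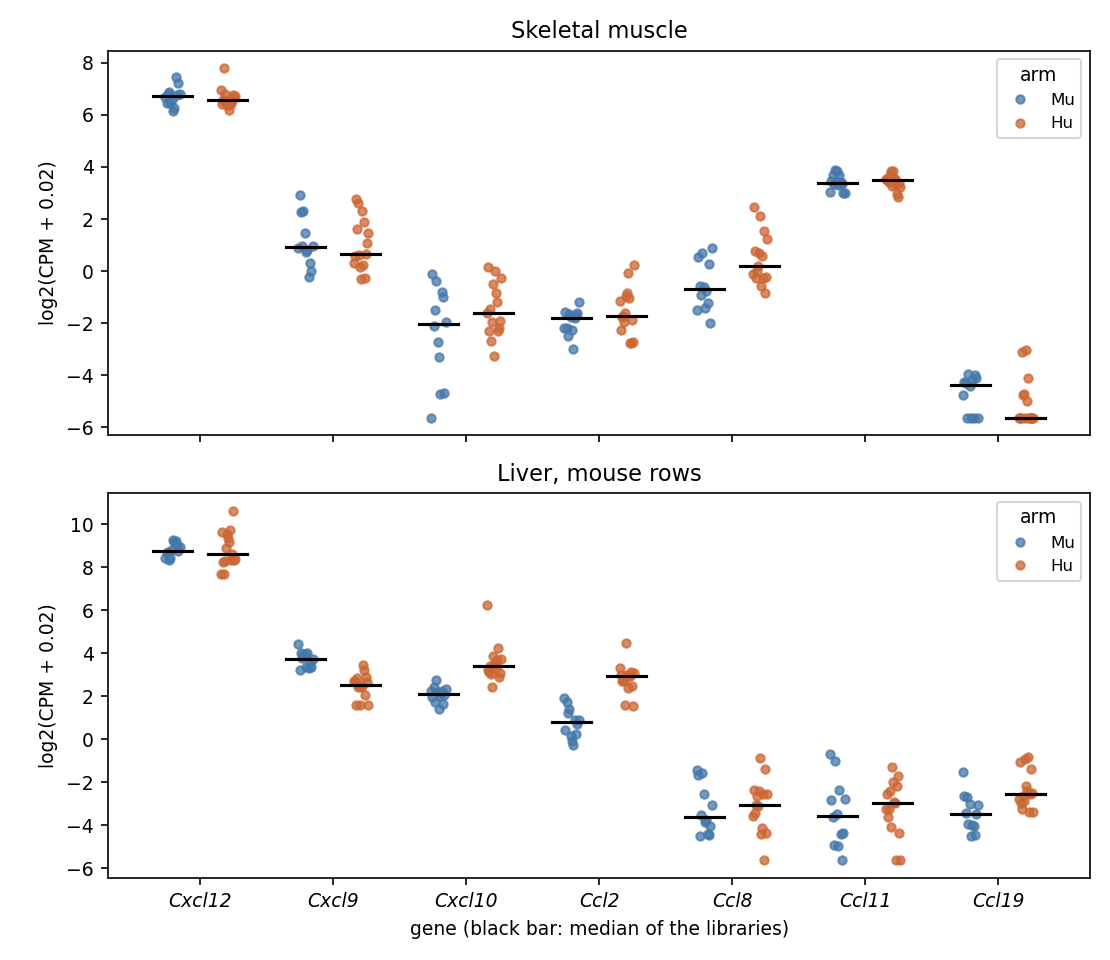
The other 7 members per library, as log2(CPM + 0.02) on the y axis, by gene on the x axis, with muscle above and the mouse rows of liver below (Mu blue, Hu orange, black bar the median). The arms overlap for all 7 genes in muscle, whereas in liver 13 of 15 Hu libraries lie above all Mu libraries for Ccl2 and 13 of 15 lie below them for Cxcl9.

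In liver the inflammatory ligands Ccl2 and Cxcl10 rose and Cxcl9 fell. Of the 8 members 6 were tested, of which 4 were called higher in Hu and 1 lower, where 42.5% of all tested genes were called higher and 37% lower. Ccl19 is among these 4, but it was tested only through the arm where it was high, so its call is no support for a difference. Ccl2 was at 0.813 CPM in the lowest, 1.72 CPM in the median and 3.75 CPM in the highest Mu liver, and at 2.86, 7.63 and 22.3 CPM in Hu livers. All but 2 Hu livers were above every Mu liver. The log2 difference was 2.12 ± 0.26 (SE; adjusted p = 1.03e-07), 4.34-fold. Cxcl10 was at 2.65, 4.30 and 6.74 CPM in Mu and 5.31, 10.4 and 76.8 CPM in Hu, and 14 of 15 Hu livers were above every Mu liver. Its highest library, Hu ZT2 replicate 1, was far above the next at 18.8 CPM. The difference was 1.71 ± 0.32 (adjusted p = 3.46e-05) and stayed between 1.31 and 1.79 when single libraries were left out. With scaling by all rows the differences were smaller, 1.09 for Cxcl10 (adjusted p = 0.0121) and 1.44 for Ccl2 (adjusted p = 0.000225).

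Cxcl9, the neighbour of Cxcl10 on chromosome 5, went the other way. Mu livers held 9.28 CPM at the lowest, 13.4 CPM in the median and 21.3 CPM at the highest. Hu livers held 2.97, 5.66 and 10.8 CPM. No Hu library was above the Mu median and 13 of 15 were below every Mu library. The log2 difference was -1.16 ± 0.18 (adjusted p = 2.57e-06), and -1.93 with scaling by all rows (adjusted p = 3.14e-08). Cxcl9 is induced mainly by type II interferon, while Cxcl10 also responds to type I interferon and NF-kB, which is background and was not tested here.

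Among the homeostatic members, Cxcl12 did not pass the test in liver, and the call for Ccl19 depended on how it entered the fit. Ccl19 was sparse, with 2 to 23 counts per Mu liver and 1 to 24 per Hu liver. It exceeded the CPM limit of the low-count filter in 1 of 12 Mu and 11 of 15 Hu livers, so it was tested only through the arm where it was high, and its test is no support for a difference. Its level was 0.0244 to 0.321 CPM in Mu (median 0.0705) and 0.0741 to 0.546 CPM in Hu (median 0.148), and 15 of 15 Hu libraries were above the Mu median. The fitted difference was 1.42 ± 0.34 (adjusted p = 0.000624), and Ccl19 did not enter the fit with scaling by all rows. Cxcl12 was at 326 to 620 CPM in Mu livers and 205 to 1583 CPM in Hu livers, and its medians were 435 and 393 CPM. The difference was 0.23 ± 0.23 (adjusted p = 0.362) with mouse library sizes. It turned to -0.75 (adjusted p = 0.000254) with scaling by all rows, where the median difference of all mouse genes was -0.70. The direction of Cxcl12 in liver therefore depends on the scaling, and its sign also changed with a covariate of macrophage markers, given below. Ccl8 and Ccl11 had too few counts in liver to be tested, at most 0.530 and 0.601 CPM in any library.

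**Figure D3:**
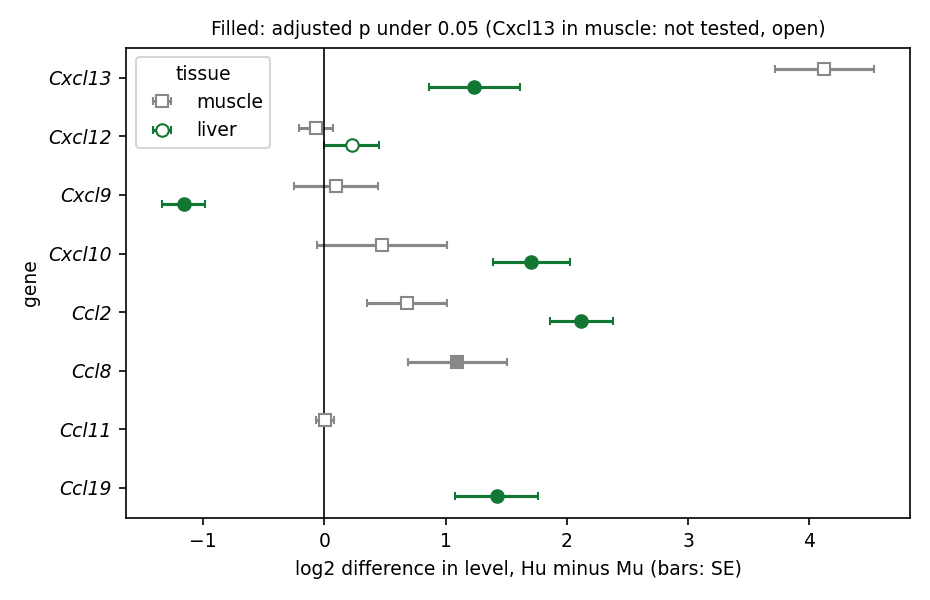
Log2 difference in level between arms, Hu minus Mu, on the x axis (points) with its SE (bars), for each member on the y axis, in muscle (grey squares) and in mouse rows of liver (green circles). Filled points passed adjusted p under 0.05. Cxcl13 in muscle was selected on this value and is open. Ccl19 in liver is filled, but it was tested only through the arm where it was high. Ccl8 alone is filled in muscle, and in liver Cxcl9 lies left of 0 at -1.16 and Ccl2 farthest right at 2.12.

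Markers of other cells differed between the arms as well. Over all tested genes, 13.5% were called higher and 13.3% lower in Hu muscle, and 42.5% and 37% in Hu liver. In muscle all 8 macrophage markers were called higher in Hu, with a median log2 difference of 0.88, and their summed level was 55.4 to 189 CPM in Mu and 106 to 306 CPM in Hu. Of 7 fat cell markers 5 were higher in Hu (median difference 2.28), with sums of 137 to 2334 CPM in Mu and 247 to 3004 CPM in Hu. Other markers were called lower in Hu muscle, namely 4 of 5 of blood endothelium and 2 of 5 of pericytes and smooth muscle. Median sums, with Mu first, were 381 against 278 CPM for the former and 590 against 426 CPM for the latter. Of 7 fibroblast markers 2 were called lower and 5 were not called. The median log2 difference of these 7 was 0.05, against 0.03 for all genes tested. Their median sum was nevertheless lower in Hu (1170 CPM, against 1611 CPM for Mu). What these lists contribute to the results was not tested. With the mean log2 level of the fat cell markers as a covariate, the Cxcl13 difference in muscle was 3.38. That of Ccl8 was 1.16 (adjusted p = 0.131), and that of Cxcl9 became -1.23 (adjusted p = 0.0260). In liver 7 of 8 macrophage markers were higher in Hu, with sums of 386 to 683 CPM in Mu and 466 to 2462 CPM in Hu, and all 5 hepatocyte markers were lower. A further fit had the mean log2 level of the macrophage and Kupffer cell markers as a covariate. The liver differences were then 1.87 for Ccl2 (adjusted p = 1.95e-05), 1.87 for Cxcl10 (adjusted p = 0.000206) and -1.33 for Cxcl9 (adjusted p = 1.90e-05). The same covariate left 0.51 for Cxcl13 (adjusted p = 0.285) and 0.78 for Ccl19 (adjusted p = 0.0779). With it the difference of Cxcl12 went from 0.23 to -0.48 (adjusted p = 0.0536). Other markers were also called higher in Hu liver, namely 6 of 7 of fibroblasts and 4 of 5 of pericytes and smooth muscle. All 5 were higher for each of stellate cells, blood endothelium, sinusoidal endothelium and bile duct cells. The part of these markers in the results was not tested.

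Receptors of the members were looked up after their values had been seen. Cxcr5, the receptor of Cxcl13 on B cells, had at most 2 counts in any muscle library and 6 in any liver library. Ccr8 had no counts in muscle. Cxcr4 and Ackr3, which bind Cxcl12, had differences of 0.04 and 0.03 in muscle (adjusted p = 0.937 and 0.832) and rose in liver (2.08 ± 0.26, adjusted p = 1.32e-07, and 1.41 ± 0.29, adjusted p = 0.000128). Ccr2, the receptor of Ccl2 and Ccl8, was at 0.36 ± 0.31 in muscle (adjusted p = 0.411) and rose in liver by 2.19 ± 0.31 (adjusted p = 7.26e-07), from a median of 5.16 to 21.8 CPM. Cxcr3, the receptor of Cxcl9 and Cxcl10, missed the threshold in muscle (1.18 ± 0.45, adjusted p = 0.0517) and in liver (0.26 ± 0.31, adjusted p = 0.438). Ccr3 and Ccr7, which bind Ccl11 and Ccl19, had differences of 0.12 and 0.30 in liver (adjusted p = 0.804 and 0.366).

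Among the other chemokine ligands, all calls in muscle were in one direction. Of 33 listed ligands 13 were tested in muscle, 6 were higher in Hu and none was lower, where 13.5% and 13.3% of all tested genes were, and their median difference was 0.44. With the fat marker covariate 1 ligand of the list was called. They were led by Ccl6 (1.49 ± 0.25, adjusted p = 0.000242), Ccl9 (1.06 ± 0.20) and Ccl24 (0.89 ± 0.20), which are made by myeloid cells. In liver 22 were tested, 12 were higher and 2 lower, where 42.5% and 37% of all tested genes were, and the median was 0.86. Cxcl14 (2.03 ± 0.19), Cx3cl1, a membrane-bound ligand of Cx3cr1 (2.92 ± 0.35), and Ccl3 (1.67 ± 0.24) had the smallest p-values among those that rose, and Ccl27a (-1.07 ± 0.18) and Ccl9 (-0.57 ± 0.19) fell. Ccl27a has near-identical copies, so its counts are uncertain. Ccl9 was thus called higher in Hu muscle and lower in Hu liver, and the difference between tissues was not tested.

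Some chemokine receptors were called higher in each tissue and none lower. In muscle 3 of 11 tested rose, where 13.5% of all genes did: Ackr1 (0.88 ± 0.13, adjusted p = 0.000106), a decoy receptor of venules and red cell precursors, Ackr2 (0.89 ± 0.18) and Ccr1 (1.10 ± 0.33). In liver 10 of 16 rose, where 42.5% of all genes did, with Cx3cr1 (3.88 ± 0.30), Cxcr4 and Ccr1 (2.32 ± 0.29) first by p-value. Of the lymphotoxin and NF-kB list, 15 genes were tested in muscle and 2 were called: Icam1, an adhesion molecule (0.37 ± 0.13, adjusted p = 0.0350), was higher and Traf3, an inhibitor of the non-canonical pathway (-0.41 ± 0.10, adjusted p = 0.00313), was lower. With 13.5% of all muscle genes called higher and 13.3% lower, this is no result about the list, and 1 gene of it was called with time as a factor or with the fat marker covariate. In liver 15 of 19 were higher and 2 lower, where 42.5% and 37% of all genes were. Map3k14, the kinase NIK of that pathway (1.49 ± 0.10), Icam1 (1.52 ± 0.10) and Relb (1.33 ± 0.15) rose, while Ltbr, the lymphotoxin beta receptor (-0.64 ± 0.06), and Rela (-0.26 ± 0.06) fell.

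Interferon response genes, which share inducers with Cxcl9 and Cxcl10, were mixed. In muscle 7 of 23 were lower in Hu, where 13.3% of all genes were, led by Ifi44 (-1.14 ± 0.17, adjusted p = 0.000101), Ifit2 (-0.44 ± 0.10) and Gbp3 (-0.59 ± 0.15), and Irf8 alone was higher (0.46 ± 0.14). In liver 8 were higher, led by Mx1 (2.38 ± 0.24), Oasl2 (1.25 ± 0.17) and Irf8 (1.17 ± 0.19), and 8 were lower, led by Irf9 (-0.73 ± 0.08), Bst2 (-1.18 ± 0.14) and Stat2 (-0.43 ± 0.06), where 42.5% of all genes were higher and 37% lower. The medians were -0.15 in muscle and 0.18 in liver.

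**Figure D4:**
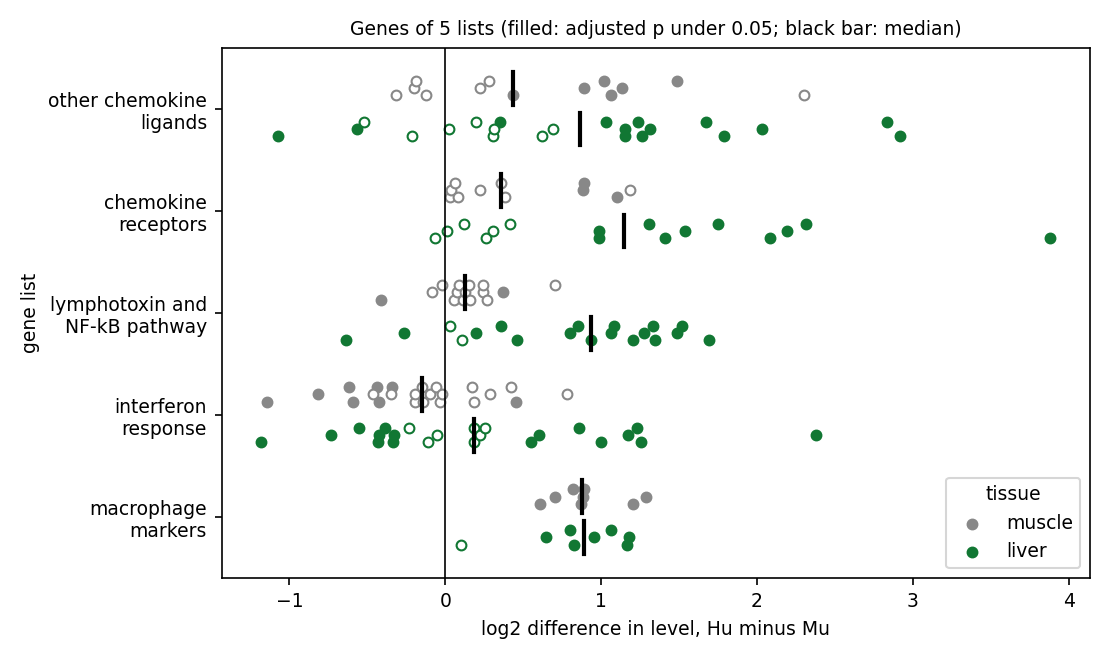
Log2 difference, Hu minus Mu, on the x axis for each tested gene of 5 lists on the y axis, in muscle (grey) and mouse rows of liver (green), filled where adjusted p was under 0.05, with the median of each list as a black bar. Medians of the ligand list are 0.44 in muscle and 0.86 in liver, and those of the interferon list are -0.15 and 0.18.

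Time of day was examined with a 24 h cosine in each arm. In muscle 2 of 7 tested members were rhythmic in Hu and 1 in Mu, against 7.78% and 5.31% of all genes. Cxcl13 in Hu muscle had a fitted peak at ZT 15 (adjusted p = 0.0465), with means of 2.97 CPM at ZT 6 and 22 CPM at ZT 14, where 1 of 2 libraries was Hu ZT14 replicate 2. Leaving out that library gave an adjusted p of 0.374, and 17 of 27 fits that left out 1 library lost the call. The rhythm of Cxcl13 in muscle was not called different between arms (adjusted p = 0.306). Ccl11 was rhythmic in both arms, with peaks at ZT 10.3 in Mu (adjusted p = 0.0240) and ZT 7.12 in Hu (adjusted p = 0.0433). Its rhythm was not called different between arms (adjusted p = 0.384). Its mean rose from 7.98 CPM at ZT 22 to 14.5 CPM at ZT 10 in Mu. In Hu it was lowest at ZT 18 (8.26 CPM) and highest at ZT 6 (12.7 CPM). The Mu call was lost in 5 of 27 such fits, namely without either Mu library of ZT10, either of ZT22 or Mu ZT14 replicate 2, and the Hu call in 15 of 27 and also with the replicate number as a block (adjusted p = 0.0610).

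In liver 1 of 6 tested members was rhythmic in each arm, against 0.167% of genes in Hu and 17.3% in Mu. Cxcl13 was rhythmic in Hu livers with a peak at ZT 14.8 (adjusted p = 0.0160), and its rhythm differed between arms (adjusted p = 0.0498, as for 1.28% of genes). Hu livers at ZT 14 held 5.17 and 40.2 CPM, while Mu livers at ZT 14 held 0.819 and 1.07 CPM. At ZT 6 the ranges were 0.658 to 1.87 CPM in Hu and 1.17 to 1.21 CPM in Mu. Without Hu ZT14 replicate 2 the adjusted p in Hu was 0.169, and it was 0.0572 without Hu ZT2 replicate 3 and 0.0541 without Hu ZT2 replicate 1. Ccl19 was called rhythmic in Mu livers (adjusted p = 0.0379), from 0.232 CPM at ZT 2 to 0.0330 CPM at ZT 18. These means rest on 23 and 13 counts at ZT 2 and on 3 and 2 counts at ZT 18. In Mu livers 3 counts correspond to 0.0254 to 0.0309 CPM, so the low point is at the limit of detection. Ccl19 exceeded the limit of the low-count filter in 1 of 12 Mu livers and was tested only through the Hu arm. Its rhythm was not called different between arms (adjusted p = 0.0979). The Mu call was lost in 7 of 26 such fits. They left out Mu ZT2 replicate 1 (adjusted p = 0.196), either Mu library of ZT14 or of ZT18, Mu ZT6 replicate 2 or Mu ZT10 replicate 1.

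**Figure D5:**
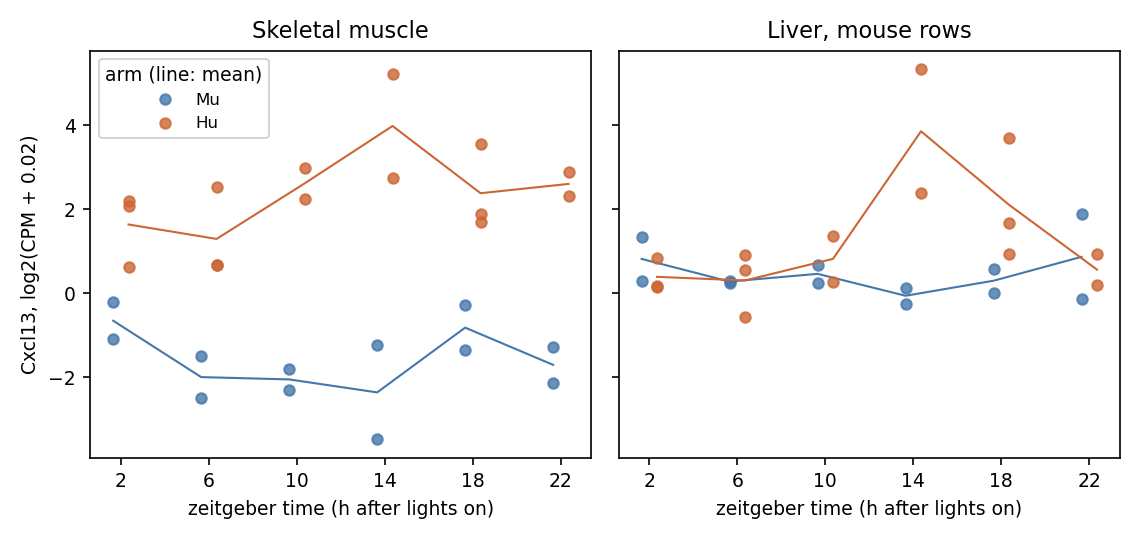
Cxcl13 in each library as log2(CPM + 0.02) on the y axis against zeitgeber time in hours on the x axis, for muscle (left) and mouse rows of liver (right), with lines through the means on the plotted scale (Mu blue, Hu orange). Hu libraries are above Mu at all 6 times in muscle, and in liver the arms part at ZT 14 and ZT 18.

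The brain regions showed no called change in any member. Cxcl12, made there by vessels, meninges and some neurons, was the only member tested in ARC, at 22.6 to 40.2 CPM in Mu (median 31.9) and 22.9 to 72.0 CPM in Hu (median 41.3). The arms overlapped, although 5 of 10 Hu libraries exceeded every Mu library. Its log2 difference was 0.54 ± 0.14 (SE; adjusted p = 0.463). In SCN it was at 38.8 to 71.3 CPM in Mu and 47.1 to 122 CPM in Hu, with a difference of 0.47 ± 0.16 (adjusted p = 0.9999). Cxcl10 in SCN differed by 0.59 ± 0.50 (adjusted p = 0.9999). These regions had few calls overall: edgeR called 1 gene in ARC, higher in Hu (0.00663%), and 0 genes in SCN (0%), where 325 genes had an unadjusted p under 0.05 and DESeq2 called 1. Cxcl13 was at 0 to 0.385 CPM in ARC and 0 to 0.493 CPM in SCN over both arms, and Cxcl9 had no counts in the 10 Hu SCN libraries, where 3 counts correspond to 0.0901 to 0.111 CPM.

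Across tissues of the Mu arm, Cxcl13 was highest in liver (mean 1.48 CPM), then muscle (0.373 CPM), SCN (0.205 CPM) and ARC (0.102 CPM). Neighbours in this order overlapped in their ranges, and liver was counted in its own table. In Hu the medians of muscle and liver were 4.74 and 1.87 CPM. Cxcl12, Cxcl9, Ccl2 and Cxcl10 were likewise highest in liver, whereas Ccl8 (0.809 CPM) and Ccl11 (10.9 CPM) were highest in muscle in Mu.

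Genes that varied most like Cxcl13 within arm and time were named by the correlation of residuals, as a description without a test. In muscle, over 27 libraries and 14194 genes, they were C4b (r = 0.849), Apoe (0.810), Dapk1 (0.806), Irak3 (0.795) and C3 (0.791). C4b and C3 are complement components and Apoe carries lipids. Without the highest Cxcl13 library these values were 0.746 to 0.808. The likest member was Cxcl10 (r = 0.506, rank 623), and Cxcl12 and Cxcl9 had r of 0.02 and 0.03. In liver the first genes were Fpr2, a formyl peptide receptor (0.812), Aoah (0.767), Gm27027 (0.759), Strada (0.755) and Siglece (0.753). Among members Cxcl9 came highest in liver (r = 0.650, rank 45), although its level fell in Hu while that of Cxcl13 rose. Libraries share depth and composition in these correlations.

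Within the 15 Hu muscles no other member tracked Cxcl13 in level. The highest of 7 correlations was that of Cxcl10 (Pearson r = 0.476, permutation p = 0.0726, adjusted p = 0.508; Spearman rho = 0.593, permutation p = 0.0225, adjusted p = 0.158), and r was 0.463 without the 2 libraries farthest from the median of Cxcl13. Across the 15 Hu livers, 8 correlations with the share of human counts were computed. Cxcl12 rose with that share (r = 0.926, permutation p = 1e-05, the smallest that 100000 draws can give, adjusted p = 8e-05; rho = 0.921, permutation p = 2e-05, adjusted p = 0.00016; r = 0.906 without the 2 farthest libraries). For Cxcl13 r was 0.598 (permutation p = 0.0179, adjusted p = 0.0477; rho = 0.632, permutation p = 0.0139, adjusted p = 0.0372) and fell to 0.487 without the 2 farthest. For Ccl19 r was 0.650 (permutation p = 0.00862, adjusted p = 0.0345; rho = 0.718, permutation p = 0.0035, adjusted p = 0.0140; r = 0.661 without the 2 farthest). With CPM of all rows in place of mouse rows these were 0.241, 0.209 and -0.0500, and none of the 3 passed. For Cxcl10 r was -0.535 (permutation p = 0.0380, adjusted p = 0.0760; rho = -0.304, permutation p = 0.273, adjusted p = 0.364) and -0.0110 without the 2 farthest, whereas with CPM of all rows it was -0.842 (permutation p = 3e-05, adjusted p = 0.00024; rho = -0.821, permutation p = 0.00028, adjusted p = 0.00224; r = -0.707 without the 2 farthest). The share enters the mouse library size, and its part in these relations cannot be told apart from that of the scaling.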

How the data were processed

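Gene counts were deposited by the authors in 2 tables without normalization, 1 for liver with mouse and human rows and 1 for the other tissues; all values are whole numbers. The submitters' processing notes name STAR and the builds GRCm38, mm10, hg38, GRCh38 and hg19; the counting program, annotation and filters are not given in the sources used here. Per the labels' protocols, RNA came from column kits and libraries were strand-directional.

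All 98 columns were used; 2 Hu columns at ZT 22 (ARC, SCN) matched a group but no replicate number. Each tissue was fitted apart with edgeR 4.0.16 (R 4.3.3): filterByExpr by arm (minimum count 10), TMM, an intercept, the arm, a 24 h cosine and sine per arm, quasi-likelihood F tests and Benjamini-Hochberg adjustment over all genes. A call is an adjusted p under 0.05. Livers were fitted on mouse rows with mouse library sizes; human rows are not analysed here beyond their share. Differences are Hu minus Mu in time-averaged log2 level. The level model was also run on simulated counts of muscle and liver, with few genes changed and no time-of-day effect. That setting lacks the broad differences between arms seen in liver, so it cannot decide how the scaling behaves there. Levels are TMM-scaled CPM; correlations used log2(CPM + 0.02) and 100000 two-sided permutations in Python 3.11.15. Likeness to Cxcl13 used residuals of log2 CPM (prior count 2).

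The members and gene lists were chosen with earlier results of these data known. Named genes were all members, up to 3 per list, tissue and direction with the smallest p-values, and the 5 genes most like Cxcl13; others are said to be chosen later. Alternatives were DESeq2 1.42.0, RLE scaling, no filter, time as a factor, a replicate block, covariates, all-row scaling, Hu livers above 20 M mouse counts (M, mega), and leaving out libraries. Replicate numbers were not used to pair the arms in the main fit. Correlations of same-numbered libraries exceeded 0.1 for 2 of 12 pairs in muscle, 7 of 12 in liver, 6 of 8 in ARC and 4 of 8 in SCN. Where both arms had 2 libraries at a time, their 2 pairs gave the same value. This check therefore cannot decide whether the numbers pair the arms.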

Additional observations from a re-analysis of the deposited data

Results flagged for a closer look

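In the groups of 10 Hu libraries of ARC and SCN, the gap between the extreme library and its neighbour was compared with the range of the group. In 14 groups with any spread, 6 had a highest library that stood apart, and all rest on few counts. The limit used is passed by about 5% of groups of normally distributed values. Sparse counts over 6 times of day are not such values, so 6 of 14 cannot be compared with that share. In ARC these were Cxcl9 at ZT10 replicate 1 (0.156 CPM, 4 counts), Cxcl10 at ZT10 replicate 2 (0.893 CPM, 22 counts) and Ccl2 at ZT18 replicate 2 (0.731 CPM, 19 counts). In SCN they were Cxcl13 at ZT18 replicate 2 (0.389 CPM, 13 counts) and, both in ZT6 replicate 1, Cxcl10 (2.37 CPM, 77 counts) and Ccl2 (0.617 CPM, 20 counts). The members share libraries, so these groups are not independent.

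The 24 h rhythm of Cxcl13 in mouse rows of liver differed between Hu and Mu (edgeR adjusted p = 0.0498), close to the threshold. Without Hu ZT14 replicate 2 the rhythm in Hu livers was not called (edgeR adjusted p = 0.169). The difference between arms was not examined without that library.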

How the results depend on the processing

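For the 8 members, the differences that changed sign and were called in either fit were Cxcl9 in muscle with the fat marker covariate (-1.23) and Cxcl12 in liver with library sizes over all rows (-0.75). With CPM of all rows the correlations with the human share became -0.773 for Cxcl9, -0.650 for Ccl2 and -0.0500 for Ccl19. Those of Cxcl9 and Ccl2 passed the threshold by Pearson (adjusted p = 0.00344 and 0.0243) but not by Spearman (adjusted p = 0.0503 for both), and r was -0.594 and -0.384 without the 2 farthest libraries. That of Cxcl10 went from -0.535 (adjusted p = 0.0760) to -0.842 (adjusted p = 0.00024; rho = -0.821, adjusted p = 0.00224). The cause was not tested. With the fat marker covariate the calls in muscle fell from 3817 to 956 genes, those among the other ligands from 6 to 1 and those of the lymphotoxin and NF-kB list from 2 to 1, and time as a factor also gave 1 for the latter. Without a filter, 0 of the 6 other members were called in muscle. The macrophage marker covariate left 3 of 5 called members in liver. Ccl19, among these 5, was tested only through the arm where it was high. DESeq2 called 14 genes in ARC and 1 in SCN, where edgeR called 1 and 0.

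Leaving out 1 library at a time gave 0 to 1 called members in muscle, 3 to 5 called receptors in muscle, 1 to 2 called genes of the lymphotoxin and NF-kB list in muscle, 0 to 2 rhythmic members in muscle, 0 to 3 in liver, 1 to 2 genes in ARC and 0 to 1 in SCN. The liver differences of Ccl2, Cxcl10 and Cxcl9 stayed called in each of the 27 such fits; Ccl19 was tested in 26. The rhythm fits without single libraries were chosen after seeing the data.

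With the replicate block the rhythmic members in muscle fell from 2 to 1, since Cxcl13 in Hu missed the threshold (adjusted p = 0.0749). Ccl11 in Hu muscle missed it too (adjusted p = 0.0610) and kept its call in Mu (adjusted p = 0.0326). With the block the differences were 1.06 for Cxcl13 in liver (adjusted p = 0.0155) and 1.08 for Ccl8 in muscle (adjusted p = 0.0260); no call of level among the members changed. Counts under about 10 per library limit Ccl19, Ccl8 and Ccl11 in liver and most members in ARC and SCN.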

Other observations

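The libraries labelled Hu ZT14 replicate 2 had the highest Cxcl13 of their arm in both tissues, 40.2 CPM in liver and 37.3 CPM in muscle. The labels do not state whether equal numbers mark the same mouse. In muscle this library ranked 2 of 15 Hu libraries in summed fat cell markers (2669 CPM) and 5 in macrophage markers (217 CPM). The muscle library with the next highest Cxcl13, Hu ZT18 replicate 1 (11.8 CPM), ranked 1 in fat cell markers (3004 CPM) and 9 in macrophage markers (182 CPM). In liver the library Hu ZT14 replicate 2 ranked 2 in macrophage markers (1461 CPM) and 10 in Kupffer cell markers (533 CPM). The library with the next highest Cxcl13 in liver, Hu ZT18 replicate 3, ranked 1 in both macrophage (2462 CPM) and Kupffer cell markers (1799 CPM), but its counterpart label in muscle ranked 11 in Cxcl13.

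Neutrophil markers reached a sum of 798 CPM in the highest of the Hu muscles and 81.6 CPM in the highest of the Mu muscles, against medians of 2.33 and 0.826 CPM. Ccr3 in muscle was likewise concentrated, with 322 counts in its highest Hu library and a Hu median of 0.0180 CPM.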
